A study of Homo sapiens with 6 samples.

Results

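The genes of the Wnt pathway described here are the ligands, receptors, secreted antagonists and intracellular components that carry or limit the beta-catenin signal. They were chosen by symbol: every WNT, FZD, DKK (1 to 4) and SFRP (1 to 5) gene in the count tables, together with CTNNB1, AXIN1, AXIN2, APC, GSK3B, LRP5, LRP6, LEF1, TCF7, TCF7L1, TCF7L2, RNF43, ZNRF3 and NKD1. This gave 51 genes of 24462 symbols. RNA sequencing was done on 6 cultures labelled PC3, a human line derived from a bone metastasis of prostate cancer. The cells were transfected with 80 nM siRNA for 72 h, 3 cultures with a non-targeting siRNA (si-Control) and 3 with an siRNA against CITED2 (si-CITED2), a transcriptional co-regulator that binds p300. The comparison asks which transcripts differed when CITED2 was targeted. The study's methods list 1 siRNA sequence for CITED2. The labels give only replicate numbers, and the study describes the RNA sequencing as 3 independent experiments.

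Wnt proteins are secreted lipid-modified ligands that bind Frizzled receptors together with the co-receptors LRP5 or LRP6. In the absence of ligand, a destruction complex built on APC and AXIN1 holds beta-catenin (CTNNB1) for phosphorylation by GSK3B and degradation. With ligand, beta-catenin accumulates and acts in the nucleus with TCF/LEF factors, whose targets include the feedback inhibitors AXIN2, RNF43, ZNRF3 and NKD1. Some ligands, such as WNT5A and WNT5B, are better known for branches that do not run through beta-catenin, including planar cell polarity.

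The total counts were between 19508925 and 28936374 per library, and values are given below as normalised counts, that is, counts divided by the library's effective size and scaled to the mean library. CITED2 itself gave 858.6, 892.0 and 773.0 normalised counts in the si-Control libraries and 1084.3, 921.1 and 983.9 in the libraries labelled si-CITED2. The targeted transcript was thus not lower in the libraries labelled si-CITED2 but higher in each of them, with a log2 fold change of 0.24 ± 0.07 (SE, n = 3 per group, edgeR adjusted p = 0.0363). The adjusted p passed 0.05 in 2 of the 6 fits that left out a library. Because the targeted transcript goes against the label, each direction below is that of the libraries labelled si-CITED2 against si-Control, and not of a lower CITED2 transcript. The study checked the knockdown in PC3 cells by immunoblot of CITED2 protein, which RNA counts do not measure. The epithelial genes KRT8, KRT18 and EPCAM and the mesenchymal gene VIM were high in every library. The 5 markers of the line (these 4 and CDH1) summed to 64061 to 67538 normalised counts in si-Control. In the libraries labelled si-CITED2 they summed to 73176 to 77904, although CDH1 was lower there (log2 fold change -0.52). Of 4 luminal prostate markers that are low in PC3, KLK3, which encodes prostate-specific antigen, had 0 to 2 counts, while the 4 summed to 250.6 to 278.6 and 323.2 to 420.1. The part of these levels in the results below was not tested. CTNNA1, a gene generally described as deleted in PC3, was counted in every library, at 9796 to 13339 reads, and was looked at after its values were seen. The tables hold 1 value per gene and no exon positions, so which part of this gene the reads came from was not tested.

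Of the 51 genes, 36 passed the filter on low counts and entered the fit across 16314 genes. The other 15 did not, and 9 of these had at most 3 counts in every library. At an adjusted p under 0.05, 9 of the 36 differed, 6 higher and 3 lower in the libraries labelled si-CITED2. In the whole fit 17.4 percent of the genes passed in either direction, 9.36 percent higher and 8.09 percent lower. The median log2 fold change of the 36 was 0.07, against -0.00 over all genes. The genes past the threshold were WNT7A, WNT5B, WNT7B, FZD2, CTNNB1 and GSK3B on the higher side and DKK1, SFRP1 and FZD5 on the lower side. Without regard to a test, the 3 libraries labelled si-CITED2 lay all above the 3 si-Control libraries for 9 of the 36 genes and all below for 6, where the shares over all genes were 16.4 percent and 16.1 percent. In bulk RNA, fewer cells that express a gene and less of its RNA per cell cannot be told apart.

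**Figure D1:**
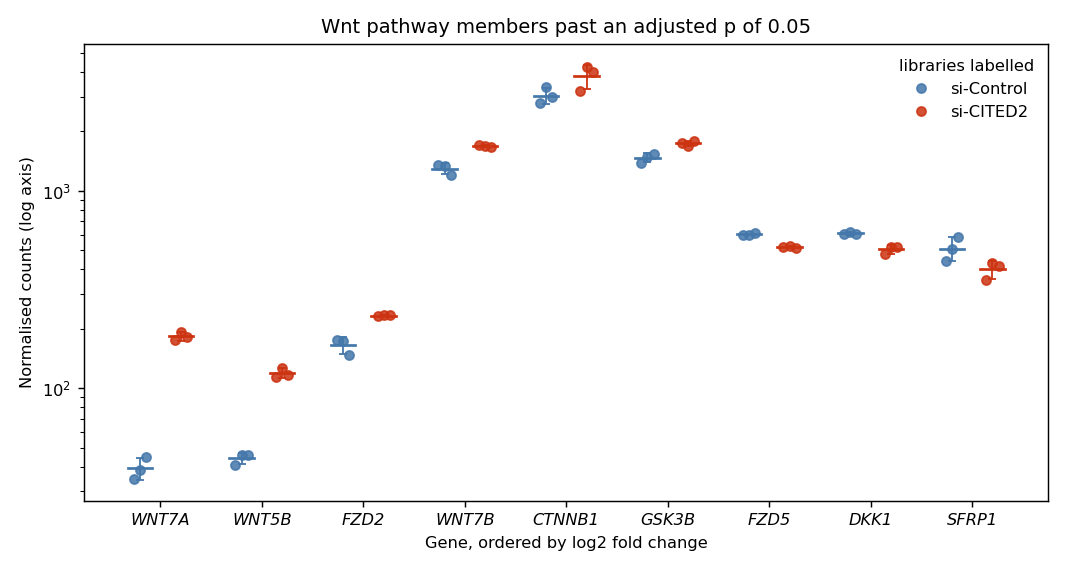
Normalised counts (log axis) of the 9 Wnt pathway genes past an adjusted p of 0.05, by library. Points are single libraries, horizontal lines the group means and vertical bars the SD. The groups stand apart for every gene except CTNNB1, where 1 library labelled si-CITED2 lies within the si-Control range, and the widest gap is that of WNT7A.

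The ligands held the 2 largest changes past the threshold. WNT7A, a ligand that can signal through beta-catenin and is known for its part in limb and vascular patterning, gave 34.7, 38.6 and 44.7 normalised counts in si-Control. The libraries labelled si-CITED2 gave 174.9, 192.1 and 181.9. The groups were far apart, with the lowest value labelled si-CITED2 above the highest control value and little spread within either group. The fold change was 4.68, a log2 value of 2.23 ± 0.16 (SE, edgeR adjusted p = 2.96e-08). WNT5B, a ligand of the branches independent of beta-catenin, gave 40.9, 45.9 and 45.9 in si-Control and 114.1, 127.1 and 116.1 in those labelled si-CITED2. These groups did not overlap either, and the fold change was 2.70, a log2 value of 1.43 ± 0.17 (SE, edgeR adjusted p = 1.06e-05). WNT7A and WNT5B were the 2 genes of the 36 that rose more than 2-fold with an adjusted p under 0.05, which 1.45 percent of all genes did.

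WNT7A (ENSG00000154764) lies at chr3:13816258-13880121 on the minus strand and WNT5B (ENSG00000111186) at chr12:1529891-1647243 on the plus strand, by GENCODE 29 on GRCh38. Their promoters are shown because they are the Wnt genes with the largest rise, and that of DKK1 because it is an antagonist that fell. SFRP1, the other antagonist that fell, had no promoter window, so its letters were not read. The bases run from 250 before a RefSeq start (GRCh38.p14) to the start or to the first base of an annotated exon. Capitals mark the letters CTTTG when followed by AA, AT, TA or TT, on either strand, the core that TCF/LEF factors are known to bind. The WNT7A stretch is chr3:13880122-13880321, that of WNT5B (the downstream of its 2 windows) chr12:1628981-1629196 and that of DKK1 chr10:52314031-52314280.
WNT7A: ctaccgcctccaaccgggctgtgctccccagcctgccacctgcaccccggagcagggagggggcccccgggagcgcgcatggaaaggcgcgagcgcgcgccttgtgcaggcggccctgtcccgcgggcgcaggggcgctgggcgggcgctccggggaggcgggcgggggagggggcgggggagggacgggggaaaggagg
WNT5B: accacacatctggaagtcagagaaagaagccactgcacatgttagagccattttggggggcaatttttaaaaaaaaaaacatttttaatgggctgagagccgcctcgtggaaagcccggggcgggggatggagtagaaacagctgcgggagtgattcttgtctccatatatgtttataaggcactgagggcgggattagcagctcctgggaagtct
DKK1: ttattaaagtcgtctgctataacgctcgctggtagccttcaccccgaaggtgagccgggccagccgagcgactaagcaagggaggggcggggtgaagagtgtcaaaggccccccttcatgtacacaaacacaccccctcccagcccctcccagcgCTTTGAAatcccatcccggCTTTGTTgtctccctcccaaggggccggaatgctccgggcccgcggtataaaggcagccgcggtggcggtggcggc

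The WNT7A and WNT5B stretches hold none of these letters, and DKK1 holds 2 matches, CTTTGAA at 95 and CTTTGTT at 76 bases before its start. The full 300-base windows around the start were 80.3 percent G and C for WNT7A, 52.0 percent for the WNT5B window shown and 63.7 percent for DKK1, against a median of 58.7 percent over all windows. Windows were given for 35 of the 51 genes, 43 windows in all. The letters stood in 4 of these 43 (9.30 percent), and in 4829 of all 35116 windows (13.8 percent). Among windows of genes past the threshold 1 of 7 held them, and among those of tested genes not past it 3 of 25. A match is a run of letters and not a shown binding site.

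WNT7B (chr22:45920362-45977129, GENCODE 29 on GRCh38) was the ligand with the highest level. It gave 1344.7, 1340.5 and 1199.0 normalised counts in si-Control and 1698.8, 1677.8 and 1667.5 in those labelled si-CITED2. The groups did not overlap, and the estimate was smaller than for its close relative WNT7A, with a fold change of 1.30 and a log2 value of 0.37 ± 0.06 (SE, edgeR adjusted p = 0.000244). WNT5A gave 121.8, 111.1 and 130.6 in si-Control and 144.5, 152.9 and 177.5 in those labelled si-CITED2. Its groups did not overlap and its log2 fold change of 0.39 ± 0.14 (SE) was as large as that of WNT7B, but it missed the threshold (edgeR adjusted p = 0.0614, 95% interval 0.10 to 0.68).

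The other 6 tested ligands, WNT3, WNT10B, WNT2B, WNT4, WNT10A and WNT9A, had overlapping groups and log2 fold changes between -0.07 and 0.26. Their precision varied with depth. For WNT3, at 111.8 to 143.5 normalised counts, the 95% interval was -0.15 to 0.42, while for WNT10A, at 5.88 to 23.0, it was -0.67 to 1.18. Among the 9 ligands not tested, WNT8A was at 0 in every library and WNT1, WNT2, WNT6 and WNT16 had at most 3 counts, where 3 counts are 0.104 to 0.154 CPM. WNT3A, WNT8B and WNT11 reached at most 5, 6 and 13 counts. WNT9B had 12 counts in si-CITED2 replicate 2 and 0 or 1 in each of the other libraries. In all, 3 of the 10 tested ligands rose, none fell, and their median log2 fold change was 0.26. Of all genes in the fit, 9.36 percent rose and 8.09 percent fell.

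Levels can be compared between genes only per length, here as normalised counts per kb of the longest principal GENCODE 29 transcript. On that scale WNT7B stood at 330.4 ± 21.2 (SD, n = 3) in si-Control, followed by WNT3 at 37.2, WNT5A at 19.6 and WNT5B at 19.2. WNT7A was at 9.74 in si-Control. In the libraries labelled si-CITED2 WNT7A reached 45.3 and WNT5B 51.7, beside WNT3 at 41.1. The order below WNT5A depended on the length used. With all annotated exons as the length, WNT5B stood at 10.3, WNT7A at 8.59, WNT10B at 14.5 and WNT2B at 4.80 in si-Control, and in the libraries labelled si-CITED2 WNT7A was at 39.9, WNT3 at 31.8 and WNT5B at 27.7. The sum over the 19 ligand genes was 472.3 ± 26.7 (SD, n = 3) per kb in si-Control and 658.1 ± 10.4 in those labelled si-CITED2, with no overlap between the groups. WNT7B made up 69.9 percent of that sum in si-Control and 65.2 percent in those labelled si-CITED2. WNT7A went from 2.08 to 6.88 percent and WNT5B from 4.08 to 7.86 percent. Of the difference between the sums, WNT7B accounted for 53.1 percent, WNT7A for 19.1 percent and WNT5B for 17.5 percent. These sums are given as a description with no test, and RNA levels do not measure secreted ligand.

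**Figure D2:**
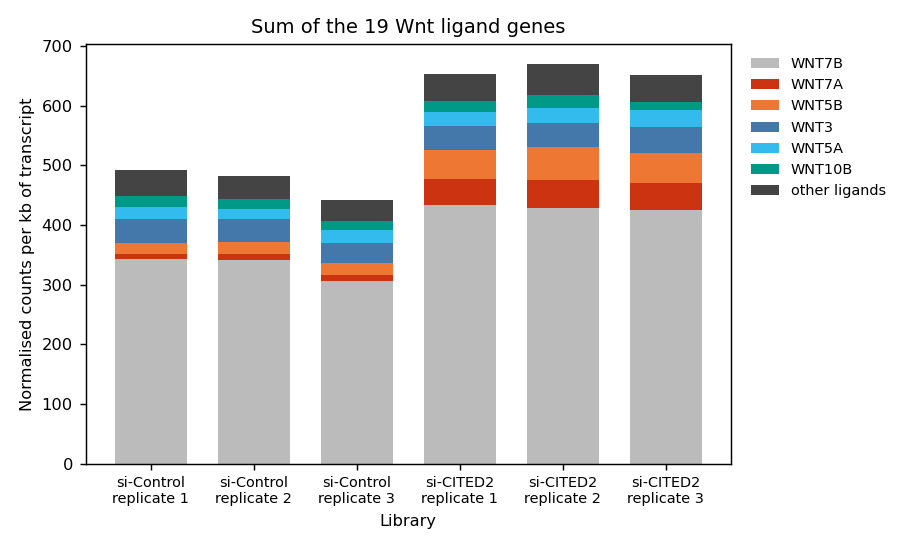
Sum of the 19 Wnt ligand genes in normalised counts per kb of transcript, 1 bar per library, coloured by gene. WNT7B fills most of every bar, and the WNT7A and WNT5B segments are wider in the 3 libraries labelled si-CITED2, whose sums of 651.4 to 670.1 lie above the 441.9 to 491.9 of si-Control.

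Among the receptors, 1 of 11 tested genes rose and 1 fell, with a median log2 fold change of -0.03. This was 18.2 percent of the tested receptor genes, close to the 17.4 percent of all genes. FZD2 (chr17:44557459-44559570), a Frizzled receptor that can bind WNT5A, gave 175.1, 173.9 and 147.1 normalised counts in si-Control and 231.9, 234.1 and 234.5 in those labelled si-CITED2. Every library labelled si-CITED2 was above every control, the 3 of them within a narrow range, and the log2 fold change was 0.49 ± 0.12 (SE, edgeR adjusted p = 0.00668). FZD5 (chr2:207762586-207769563), a receptor for ligands of the beta-catenin branch, gave 600.8, 599.0 and 608.3 in si-Control and 519.7, 525.5 and 512.7 in those labelled si-CITED2. It fell in each library, with a log2 fold change of -0.21 ± 0.07 (SE, edgeR adjusted p = 0.0463), and this call was lost in all 6 fits that left out a library, where the log2 value stayed between -0.23 and -0.20.

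FZD6 was the most abundant receptor transcript, at 582.1 normalised counts per kb in si-Control. It gave 2132.2, 2195.5 and 2287.4 normalised counts in si-Control and 2058.2, 2141.2 and 2255.8 in those labelled si-CITED2, with overlapping groups and a log2 fold change of -0.03 (95% interval -0.15 to 0.08, edgeR adjusted p = 0.743). FZD6 made up 63.7 ± 1.10 percent (SD, n = 3) of the Frizzled sum per kb in si-Control and 61.9 ± 0.886 percent in those labelled si-CITED2. The share of FZD2 was 8.58 and 12.1 percent, that of FZD5 9.84 and 8.44 percent, and the sum itself was 913.2 and 917.7. The 2 group sums lay within 1 SD of each other, while, in these libraries, FZD2 took a larger and FZD5 a smaller share in each library labelled si-CITED2. These shares are a description with no test.

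The co-receptor LRP6 gave 2302.8, 2465.2 and 2501.5 normalised counts in si-Control and 2692.0, 2377.2 and 2458.5 in those labelled si-CITED2. The groups overlapped, and the log2 fold change was 0.05 (95% interval -0.07 to 0.17, edgeR adjusted p = 0.633). LRP5, the other co-receptor, did not overlap between groups and was lower in the libraries labelled si-CITED2, at -0.12 ± 0.06 (SE) on the log2 scale, but missed the threshold (edgeR adjusted p = 0.146). The same held for FZD1, at -0.22 ± 0.13 (SE, edgeR adjusted p = 0.266). FZD3, FZD4, FZD7, FZD8 and FZD9 had overlapping groups and log2 fold changes between -0.10 and 0.14, and FZD10 had 2 to 4 counts per library and was not tested.

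**Figure D3:**
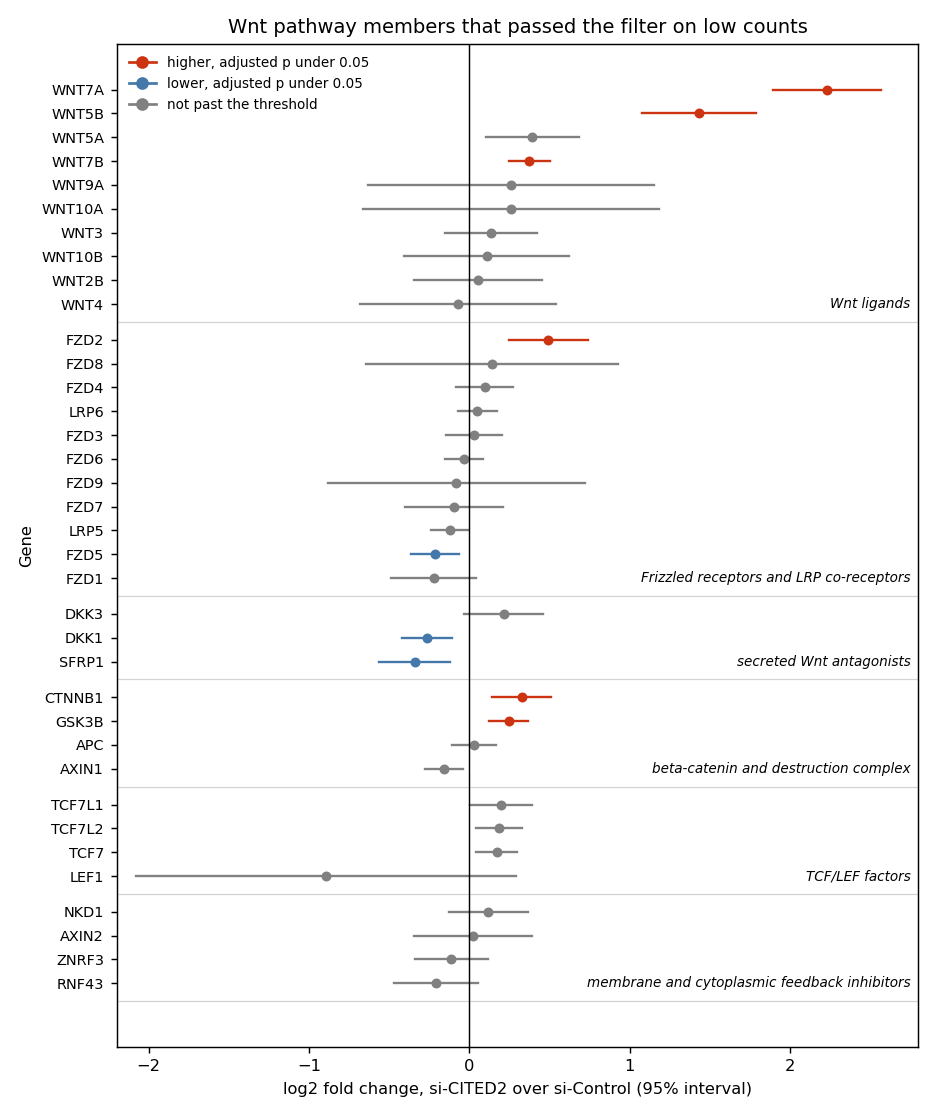
Log2 fold change of the libraries labelled si-CITED2 over si-Control for the 36 Wnt pathway genes that passed the filter, by role. Points are the edgeR estimates and lines their 95% intervals, with genes past an adjusted p of 0.05 in colour. WNT7A and WNT5B stand apart from the other genes, most intervals of the feedback inhibitors and receptors span 0, and the widest, that of LEF1, runs from -2.08 to 0.29.

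Of the 8 secreted antagonists, 3 were tested and 2 of these fell, where 8.09 percent of all genes fell. DKK1 (chr10:52314296-52318042), which blocks LRP5 and LRP6, gave 603.5, 616.7 and 603.6 normalised counts in si-Control and 477.2, 519.8 and 517.1 in those labelled si-CITED2. The groups did not overlap, and the log2 fold change was -0.27 ± 0.07 (SE, edgeR adjusted p = 0.0179). SFRP1, a soluble protein that binds Wnt ligands, gave 441.7, 505.6 and 582.4 in si-Control and 353.4, 430.9 and 414.1 in those labelled si-CITED2. Its highest value labelled si-CITED2 was just under its lowest control value, and the log2 fold change was -0.34 ± 0.11 (SE, edgeR adjusted p = 0.0327). Both calls depended on single libraries. Without si-CITED2 replicate 1 or si-Control replicate 2, neither DKK1 nor SFRP1 passed, and SFRP1 was also lost without si-CITED2 replicate 3 or si-Control replicate 3. The exons of DKK1 overlap those of PRKG1-AS1 on the opposite strand, which had at most 25 counts.

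DKK3, a relative of DKK1, was not past the threshold, at 0.21 ± 0.12 on the log2 scale (SE, edgeR adjusted p = 0.245), and its groups overlapped. DKK1 was the most abundant antagonist transcript per length, at 339.6 normalised counts per kb in si-Control and 282.0 in those labelled si-CITED2, ahead of SFRP1 at 113.5 in si-Control. DKK2, DKK4, SFRP2 and SFRP5 had at most 3 counts in every library and SFRP4 at most 6.

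In the group of beta-catenin and its destruction complex, 2 of 4 genes rose and none fell, where 9.36 percent of all genes rose. CTNNB1 (chr3:41194741-41260096), which encodes beta-catenin, gave 2787.2, 3351.6 and 2980.4 normalised counts in si-Control and 3193.5, 4235.7 and 3991.3 in those labelled si-CITED2. Replicate 1 labelled si-CITED2 lay below the highest control, so the groups overlapped, and the spread within groups was wide for a gene with this many reads. The log2 fold change was 0.33 ± 0.09 (SE, edgeR adjusted p = 0.0143). It was no longer past the threshold without si-CITED2 replicate 2, si-CITED2 replicate 3 or si-Control replicate 1, nor with DESeq2, with log2 values from 0.24 to 0.43 over the fits that left out a library. GSK3B (chr3:119821323-120094417), the kinase that marks beta-catenin for degradation, gave 1384.7, 1487.8 and 1537.8 in si-Control and 1751.0, 1685.5 and 1785.8 in those labelled si-CITED2. Its groups did not overlap, and the log2 fold change was 0.24 ± 0.06 (SE, edgeR adjusted p = 0.00672).

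AXIN1, the scaffold of the complex, gave 1382.9, 1404.1 and 1323.7 in si-Control and 1254.3, 1210.6 and 1217.2 in those labelled si-CITED2. It was lower in each library labelled si-CITED2, but missed the threshold (log2 fold change -0.16 ± 0.06, SE, edgeR adjusted p = 0.0604), which it passed without TMM scaling. APC overlapped between groups and had a log2 fold change of 0.03 (95% interval -0.11 to 0.17). Per length, GSK3B was at rank 1 of the 4 genes by its principal transcript and at rank 4 when all annotated exons were used, so their order is not given.

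None of the 4 TCF/LEF genes passed the threshold. TCF7L2 was the most abundant per length, at 495.4 normalised counts per kb in si-Control (279.6 with all annotated exons as the length), and gave 1662.9, 1958.0 and 2029.7 normalised counts there and 2054.5, 2138.4 and 2220.8 in those labelled si-CITED2. Its groups did not overlap, and the log2 fold change was 0.18 ± 0.07 (SE, edgeR adjusted p = 0.0754). TCF7 and TCF7L1 were likewise higher in each library labelled si-CITED2, at 0.17 ± 0.06 (SE, edgeR adjusted p = 0.0704) and 0.20 ± 0.09 (SE, edgeR adjusted p = 0.165) on the log2 scale. LEF1, a TCF/LEF factor that is also a common target of the pathway, had 3 to 24 counts per library. It gave 21.3, 8.86 and 12.9 normalised counts in si-Control and 17.0, 2.87 and 4.38 in those labelled si-CITED2, with overlapping groups and a log2 fold change of -0.90 ± 0.56 (SE, edgeR adjusted p = 0.322). The LEF1 estimate depended on single libraries. It ranged from -1.97 to -0.45 over the fits that left out a library, and passed the threshold in none of them.

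The 4 feedback inhibitors, which are direct targets of the beta-catenin branch in many cells, had no gene past the threshold and a median log2 fold change of -0.04. AXIN2, the most widely used readout of the branch, gave 83.5, 70.8 and 64.7 normalised counts in si-Control and 68.0, 79.3 and 75.6 in those labelled si-CITED2. The groups overlapped throughout. The log2 fold change was 0.02 ± 0.17 (SE, edgeR adjusted p = 0.953), with a 95% interval from -0.35 to 0.39. Differences within these bounds remain compatible with the values of the 3 libraries per group. ZNRF3, a membrane ubiquitin ligase that removes Frizzled receptors and the most abundant of the 4 per length (136.3 normalised counts per kb in si-Control, 56.3 with all annotated exons as the length), gave 357.3, 406.6 and 413.0 in si-Control and 304.8, 375.5 and 404.3 in those labelled si-CITED2. It overlapped between groups, with a log2 fold change of -0.11 (95% interval -0.34 to 0.11). RNF43, the partner of ZNRF3, and NKD1, an inhibitor of Dishevelled, had intervals of -0.47 to 0.05 and -0.13 to 0.36.

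**Figure D4:**
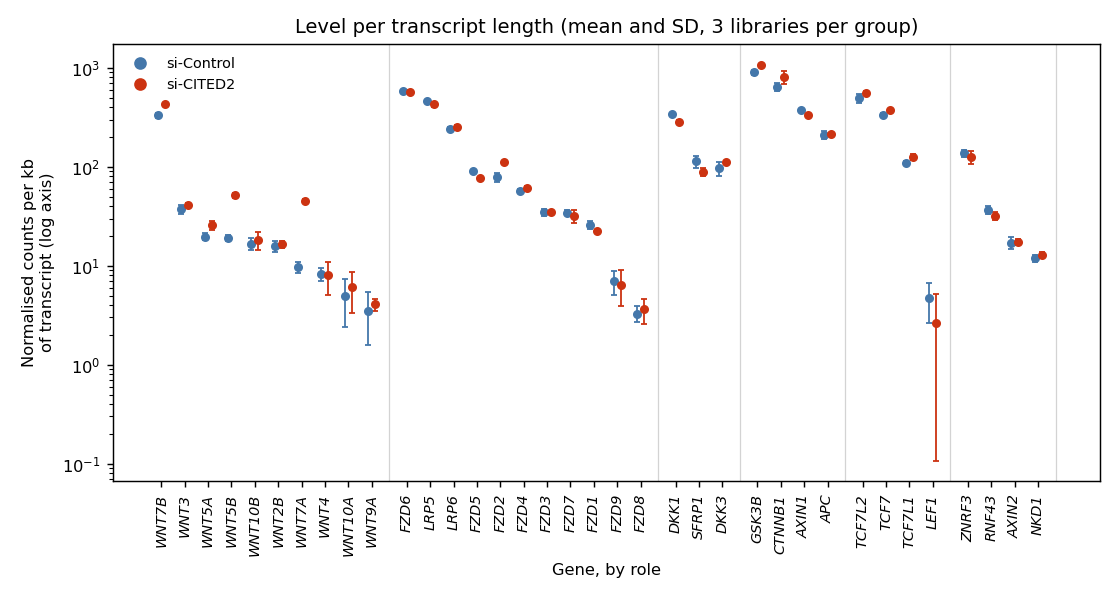
Level of the 36 tested Wnt pathway genes in normalised counts per kb of transcript (log axis), by role and ordered within each role by the si-Control mean. Points are group means and bars the SD of 3 libraries. WNT7B, FZD6, DKK1 and TCF7L2 lead their groups, WNT7A and WNT5B show the widest gap between the colours, and FZD8 and LEF1 are among the lowest.

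The rest of the pathway was read from 4 lists of genes outside the 51. Of 26 genes for Wnt release, R-spondins and other extracellular modulators, 11 were tested, 1 rose and 1 fell. This was 18.2 percent of the tested genes, close to the 17.4 percent of all genes, and the median log2 fold change was 0.01. PORCN, the acyltransferase that lipid-modifies Wnt proteins for secretion, gave 84.4, 94.2 and 116.5 normalised counts in si-Control and 149.4, 128.0 and 152.3 in those labelled si-CITED2. It was higher in each library labelled si-CITED2, at 0.55 ± 0.15 on the log2 scale (SE, edgeR adjusted p = 0.0206), and kept an adjusted p under 0.05 in 2 of the 6 fits that left out a library. LGR4, a receptor for R-spondins that strengthens Wnt signals, gave 1316.3, 1340.5 and 1428.4 in si-Control and 1058.8, 1078.7 and 1129.6 in those labelled si-CITED2, a fall without overlap (log2 fold change -0.32 ± 0.06, SE, edgeR adjusted p = 0.00100). WLS, which carries Wnt proteins to the surface, had overlapping groups and a log2 fold change of 0.01 (95% interval -0.14 to 0.16).

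All 48 genes for intracellular transduction and beta-catenin cofactors were tested, and 3 rose and 1 fell, 8.33 percent against 17.4 percent of all genes. TBL1XR1, a subunit of corepressor complexes that also binds beta-catenin, rose by 0.33 ± 0.05 on the log2 scale (SE, edgeR adjusted p = 0.000184). DVL1, a Dishevelled protein that relays the receptor signal, rose from 1102.5 to 1228.6 normalised counts in si-Control to 1408.6 to 1461.9 in the libraries labelled si-CITED2 (log2 fold change 0.29 ± 0.06, SE, edgeR adjusted p = 0.00215). NLK, a kinase that acts on TCF/LEF factors, rose by 0.26 ± 0.06 (SE, edgeR adjusted p = 0.00784). TBL1X, a close relative of TBL1XR1, went the other way, at -0.26 ± 0.06 (SE, edgeR adjusted p = 0.00464). The 4 genes had no overlap between the groups.

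Of 28 genes for non-canonical receptors and planar polarity, 26 were tested, 3 rose and 4 fell, 26.9 percent against 17.4 percent of all genes. DAAM1, a formin that binds Dishevelled, rose by 0.41 ± 0.06 on the log2 scale (SE, edgeR adjusted p = 9.44e-05). The receptors RYK and PTK7 rose by 0.24 ± 0.06 (SE, edgeR adjusted p = 0.0145) and 0.17 ± 0.06 (SE, edgeR adjusted p = 0.0487). PTK7 lost its call in each fit that left out a library, and RYK kept its call in 4 of these 6 fits. PRICKLE1, a core planar polarity protein, gave 146.6, 136.9 and 141.2 normalised counts in si-Control and 69.2, 91.7 and 85.5 in those labelled si-CITED2. It had the largest change of the list, at -0.78 ± 0.15 (SE, edgeR adjusted p = 0.00139). The polarity scaffold SCRIB changed by -0.28 ± 0.06 (SE, edgeR adjusted p = 0.00187) and the calcium-dependent kinase subunit CAMK2D by -0.23 ± 0.07 (SE, edgeR adjusted p = 0.0270). The call of CAMK2D held in only 2 of the 6 fits that left out a library. CAMK2G was the other gene that fell. The list therefore held changes in both directions and a median log2 fold change of 0.01.

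Of 32 genes often described as beta-catenin targets, 24 were tested, 8 rose and 2 fell, 41.7 percent against 17.4 percent of all genes, with a median log2 fold change of 0.09. EPHB2, an ephrin receptor, gave 152.9, 153.8 and 171.8 normalised counts in si-Control and 477.2, 494.0 and 414.1 in those labelled si-CITED2 (log2 fold change 1.54 ± 0.11, SE, edgeR adjusted p = 1.98e-08). PPARD, a nuclear receptor for fatty acids, gave 1777.6, 1844.5 and 1793.2 in si-Control and 3826.2, 3615.5 and 3783.1 in those labelled si-CITED2 (log2 fold change 1.05 ± 0.05, SE, edgeR adjusted p = 1.82e-10). TNFRSF19, a receptor of the tumour necrosis factor family, was at 5.88 to 12.1 in si-Control and 25.2 to 43.7 in those labelled si-CITED2 (log2 fold change 1.85 ± 0.36, SE, edgeR adjusted p = 0.00162). CD44, PLAUR, JUN, CCND1 and SOX9 were the others that rose, with log2 fold changes from 0.33 to 0.89.

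The 2 that fell were FOSL1, an AP-1 subunit, at -0.58 ± 0.05 on the log2 scale (SE, edgeR adjusted p = 1.76e-07) and BIRC5, an inhibitor of apoptosis used as a mitotic marker, at -0.27 ± 0.05 (SE, edgeR adjusted p = 0.000943). SP5, a transcription factor that is a direct target in many tissues, had overlapping groups and a log2 fold change of 0.09 (95% interval -0.46 to 0.64). NOTUM, a secreted enzyme that inactivates Wnt ligands, had -0.15 (95% interval -0.70 to 0.40), LGR5 had at most 1 count, and APCDD1 at most 13. MYC was lower in each library labelled si-CITED2 but missed the threshold (log2 fold change -0.16 ± 0.06, SE, edgeR adjusted p = 0.0604). Many genes of this list have regulators besides beta-catenin. NOTUM, LGR5 and APCDD1 also stand in the list of extracellular modulators.

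**Figure D5:**
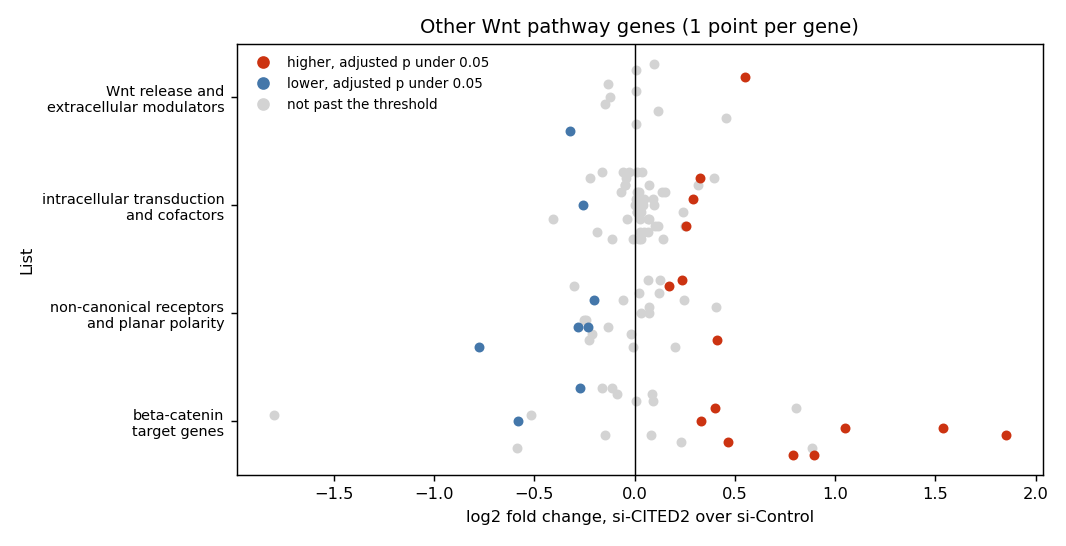
Log2 fold change of the libraries labelled si-CITED2 over si-Control for the tested genes of 4 further Wnt pathway lists, 1 point per gene, with genes past an adjusted p of 0.05 in colour. The height of a point within its list has no meaning. The target list holds the most coloured points (8 higher and 2 lower), and the list of intracellular transduction and cofactors sits close to 0.

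Markers of other cell types were read for the same libraries. The summed level of 5 fibroblast markers was 121.2 to 128.0 normalised counts in si-Control and 155.4 to 167.6 in those labelled si-CITED2, nearly all of it COL1A1, with PDGFRA at most at 11 counts and the other 3 at 3 or fewer in every library. The 4 endothelial markers summed to 12.4 to 22.5 over all libraries. Of 4 leukocyte markers, the defining genes PTPRC and CD3E had at most 2 counts, and CD68 made up nearly all of the sum. The part of these markers in the Wnt gene results was not tested.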

How the data were processed

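RNA was extracted from 6 cultures labelled PC3 and sequenced after library preparation with a SMARTer mRNA kit. The authors deposited raw read counts per gene symbol, 1 table per library, without normalisation. The submitters' processing notes name TopHat, edgeR and hg19 without roles, and the counting program, annotation and use of strand are not given in the sources used here, so reads of overlapping genes cannot be told apart. Of 25737 lines, the one with most counts was kept for each of 286 repeated symbols, which left out 0.0821 percent of counts. No Wnt gene listed had several. The 3 si-Control and 3 si-CITED2 libraries, grouped by their labels, were compared with edgeR 4.0.16 in R 4.3.3 (TMM, filterByExpr with a minimum count of 10, quasi-likelihood test, no block), with Benjamini-Hochberg adjustment over all 16314 genes, 2846 of which passed 0.05. An exact permutation test of 3 against 3 cannot go below 0.1. Alternatives were DESeq2 1.42.0, no TMM, other filters, summed symbols, a replicate block and leaving out each library. The pipeline was run on simulated data with known changes. Every gene was drawn with the same dispersion, and changes were planted only in genes above a minimum mean count. The simulation therefore cannot show how genes with few counts or a wide spread are handled. Lengths came from GENCODE 29 and promoters from RefSeq (GRCh38.p14).

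Besides CITED2, the genes named by rule were every Wnt pathway gene past the threshold, CTNNB1, AXIN2, LEF1, LRP6, the most abundant gene per length of each role, and up to 3 genes per direction of each further list. Other genes are named to complete a count or were chosen after their values were seen. The genes, the lists and the tests were chosen with earlier results of these data known. The library totals of 19508925 to 28936374 limit precision for genes with few counts, and counting floors cover counting error only.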

Additional observations from a re-analysis of the deposited data

How the results depend on the processing

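With 12 alternatives tried (6 leaving out a library), WNT7A, WNT5B, WNT7B, FZD2 and GSK3B kept an adjusted p under 0.05 in each, the largest being 0.0400 for GSK3B. Higher calls among the Wnt genes ranged from 5 to 7, and lower calls from 0 to 4 over all 12, from 0 to 2 without 1 library (0 without si-Control replicate 2) and 4 without TMM, where AXIN1 passed and the destruction complex had 3 calls. FZD5 was lost in 9 of the 12. Over the fits without 1 library, calls ranged from 1 to 2 for beta-catenin and its destruction complex, 0 to 2 for antagonists, 1 to 2 for receptors, 0 to 1 for TCF/LEF factors, 1 to 2 for release and extracellular modulators and 4 to 7 for non-canonical genes. The log2 fold change ranged from 0.17 to 0.29 for CITED2, from -0.050 to 0.13 for AXIN2, which was also at -0.03 without si-CITED2 replicate 2 and at -0.0046 without si-Control replicate 2, and from -0.0042 to 0.085 for LRP6. DESeq2 called 1 receptor gene and 1 of the destruction complex (CTNNB1 was lost), and testing every gene with any count called 1 receptor gene and 1 TCF/LEF gene (TCF7L2). Without TMM, CITED2 was at 0.22 (edgeR adjusted p = 0.0518). Same-numbered libraries deviated with correlations from -0.04 to 0.03, so the numbers were not taken as pairs; the fit with a replicate block called 1 receptor gene and 1 TCF/LEF gene, 7 Wnt genes higher and 2 lower, and 2559 genes in all against 2846. The cause of these changes was not tested. Genes under about 20 counts, such as LEF1, WNT10A and FZD8, have intervals too wide to show a change under 1.5-fold. With all annotated exons as the length (chosen after seeing the data), GSK3B moved from rank 1 to rank 4 in its list, ligands below WNT5A changed order, and WNT7B went from 69.9 to 71.2 percent of the ligand sum in si-Control.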

Other observations

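Genes of cell adhesion that bind beta-catenin outside the pathway also differed, and these were chosen after their values were seen. CDH1, the epithelial cadherin that holds beta-catenin at the membrane, had 3285.3 ± 286.0 normalised counts (SD, n = 3) in si-Control and 2293.5 ± 90.8 in the libraries labelled si-CITED2, with no overlap (log2 fold change -0.52 ± 0.06, SE, edgeR adjusted p = 1.67e-05). CDH3, the placental cadherin, went the other way, from 2914.4 ± 43.3 to 5079.7 ± 91.5 (log2 fold change 0.80 ± 0.05, SE, edgeR adjusted p = 2.47e-09). JUP, the desmosomal relative of beta-catenin, was higher at 0.23 ± 0.05 on the log2 scale (SE, edgeR adjusted p = 0.00480), and CTNNA1, the alpha-catenin that links cadherins to actin, at 0.20 ± 0.05 (SE, edgeR adjusted p = 0.00610). CTNND1, which encodes p120 catenin, missed the threshold, at 0.06 (95% interval -0.03 to 0.16), and CDH2 had at most 5 counts. The study measured E-cadherin (CDH1) mRNA in PC3 cells by RT-qPCR and reports that CITED2 lowered epithelial markers. In these RNA counts CDH1 was lower, not higher, in the libraries labelled si-CITED2, and the reason was not tested.

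RECK and ADGRA2 encode the membrane proteins that act with Frizzled as a receptor specific to WNT7A and WNT7B. RECK gave 354.6 ± 26.7 normalised counts (SD, n = 3) in si-Control and 470.6 ± 39.3 in the libraries labelled si-CITED2, without overlap (log2 fold change 0.40 ± 0.09, SE, edgeR adjusted p = 0.00565). ADGRA2 overlapped between groups, at 0.31 ± 0.17 on the log2 scale (SE, edgeR adjusted p = 0.248). TCF4, a gene of the target list that does not belong to the TCF/LEF family, had 105 counts in si-Control replicate 3 and 7 to 21 in the other libraries, and did not pass the threshold (edgeR adjusted p = 0.141).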
